A study of Saccharomyces cerevisiae with 32 samples.

Results

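Budding yeast cultures (Saccharomyces cerevisiae) were compared at 45 min and at 30 min after release from a G1 arrest, the interval in which a synchronised culture leaves S phase and enters mitosis. The comparison took the 4 arrays of the 45 min time point and the 4 arrays of the 30 min time point, 8 of the 32 arrays in the series. Cells had been held in G1 for 2 hours with the mating pheromone alpha-factor, then let go and sampled at 15 min steps up to 105 min. Both times were covered by 2 strains with 2 replicate time courses each, and each 45 min array was set against the 30 min array of its own strain and replicate, which gave 4 paired steps.

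The 4P strain (YBL289) carried mutant alleles of 4 transcription factor genes and is called a phosphomutant by the submitters. The labels name these alleles hcm1-15A-3HA and tos4-9A-3FLAG in the forkhead genes, and yox1-9A-3V5 and yhp1-13A-13MYC in the homeodomain repressor genes. The WT strain (YBL320) carried HCM1-3HA, TOS4-3FLAG, YOX1-3V5 and YHP1-13MYC, so both strains had tagged copies of the 4 transcription factors. The mutant alleles were present together, and their separate parts cannot be told apart. The second channel of every array held RNA of MW836a, an untagged strain (HCM1 TOS4 YOX1 YHP1) in mid-log growth, a mixture of all cell cycle stages. The dye of the synchronised RNA was Cy3 in both replicate 1 courses and Cy5 in both replicate 2 courses, so each paired step compared arrays of the same dye. Per the series' design text each time course was run in duplicate, but the labels do not say whether the duplicates were started from separate cultures. The p-values below measure the spread left between replicate arrays over all times, after a constant offset per time course was taken out. Whether that spread covers separate cultures is not known. The series title names the control of S-phase transcription factors by the kinase Cdk1, and the step examined here is the one in which S-phase genes give way to mitotic genes.

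As background, the yeast cell cycle is accompanied by successive waves of transcription. The factors MBF and SBF switch on genes for DNA replication and budding at the G1/S boundary, histone genes follow during S phase, and the complex of Mcm1, Fkh2 and Ndd1 then switches on the CLB2 cluster, which serves mitosis. Hcm1 is a forkhead activator of S-phase genes, and Yox1 and Yhp1 are repressors that act at early cell cycle box promoters with Mcm1. Tos4, a protein with a forkhead-associated (FHA) domain, binds chromatin.

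Values below are either levels, meaning the log2 ratio of synchronised to mid-log RNA, or differences between such levels, 45 minus 30 min. Genes were tested with limma over all 6205 genes kept, with Benjamini-Hochberg adjustment, and a gene was called at an adjusted p under 0.05. On the 8 arrays the channel of the synchronised RNA had 97.7% to 99.3% of its spots well above background and a median signal 14.2 to 65.5 times background. The number of arrays limits the precision, and the median standard error of a difference was 0.11. A total of 132 genes had saturated spots on at least 1 of the 8 arrays, and 29 of them were called. That share is similar to the 1540 called of all 6205 genes. Both arrays of a course lay on 1 slide in 3 of the courses, while WT replicate 1 was hybridised on slide 2 at 30 min and on slide 5 at 45 min. These are bulk cultures, so fewer cells at a stage and less RNA per cell cannot be told apart.

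Markers of the stages were read first. Their lists were chosen with earlier results of these data known, so they describe the stages and are not an independent test of them. Core histone genes, the S-phase marker, had their highest mean level of all 8 times at 30 min in each of the 4 time courses, with 1.24 over all courses, against -0.49 at 45 min. The CLB2 cluster, the mitotic marker, had a mean level of 0.91 at 45 min, against -0.60 at 30 min. It was at its highest of all times at 45 min in 4P replicate 2 and WT replicate 1, at 60 min in 4P replicate 1 and at 105 min in WT replicate 2. MBF-type genes of G1/S had already passed their highest level at 15 min, and stood at -0.86 at 45 min, against 0.71 at 30 min. The list of M/G1 genes, the marker of the passage from mitosis to G1, stayed far below the mid-log culture at both times, with -2.55 at 45 min and -2.56 at 30 min, and was highest at 75 min in all 4 courses. The 30 min arrays thus lay at the histone peak, and the 45 min arrays in the CLB2 cluster wave and before the M/G1 wave.

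**Figure D1:**
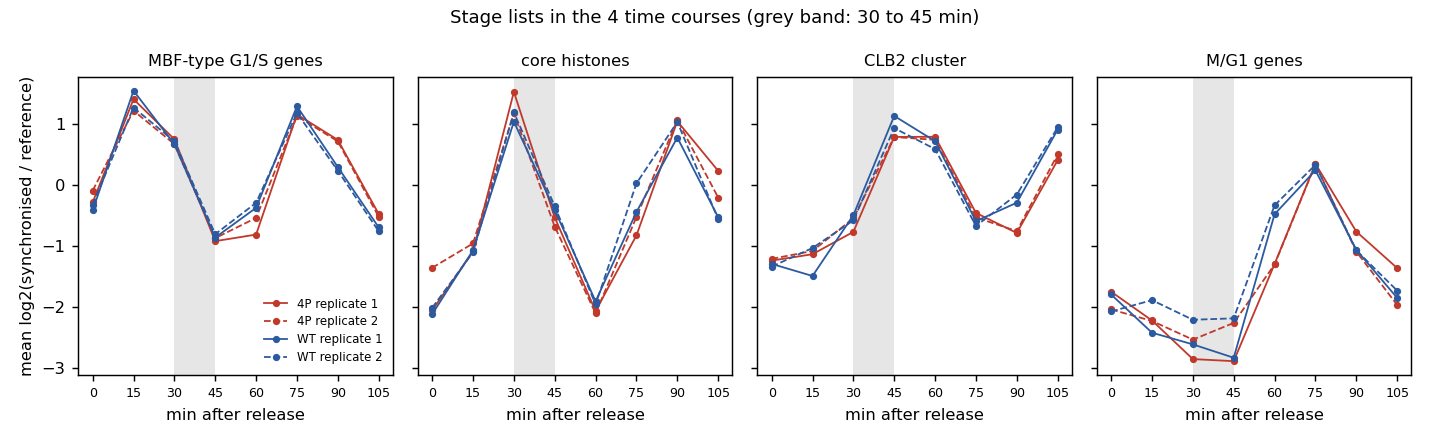
Mean log2 ratio to the mid-log culture of 4 gene lists over the 8 times after release, one line per time course (4P in red, WT in blue, replicate 2 dashed), with the interval from 30 to 45 min in grey. Within the band the histone and MBF-type lines fall and the CLB2 cluster lines climb in all 4 courses, while the M/G1 genes remain below -2.

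Strains of mating type a respond to alpha-factor, and all 7 a-cell genes listed were well above background on all 8 arrays. Of the alpha-cell genes, the pheromone gene MF(ALPHA)1 was above background on 2 of the 8 arrays, but MF(ALPHA)2, SAG1 and STE3 were so on all 8, so detection does not tell the mating types apart here. The mean level of the 10 alpha-cell and meiotic genes ran from -0.10 to 0.12 over the 45 min arrays and from -0.07 to 0.05 over the 30 min arrays, and 1 of the 10 was called, the sporulation gene SPS4 at 0.54 ± 0.13 (SE, limma adjusted p = 0.00311). That call was lost with median centring and without WT replicate 1.

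Over all genes, 752 were higher at 45 min (12.1%) and 788 were lower (12.7%), and 2288 had an unadjusted p under 0.05. In 1511 of the 1540 called genes the step had the same sign in all 4 time courses. Changes of at least 2-fold were fewer, with 56 genes higher (0.902%) and 105 lower (1.69%). The 45 min arrays lay wholly above the 30 min arrays in 643 genes (10.4%) and wholly below them in 729 (11.8%) of 6203 genes with a value on all 8 arrays. The median difference over all genes was 0.0080. In 4P alone 355 genes were higher (5.72%) and 458 lower (7.38%), and in WT alone 201 were higher (3.24%) and 327 lower (5.27%). The 24 gene lists described next held 379 measured genes, some of them in several lists. Counts of called members in a list are to be read beside the shares over all genes, 12.1% higher and 12.7% lower. Over all genes the calls numbered 472 higher and 535 lower when the arrays were not paired within time courses, and 447 and 545 with slide as a further block. Leaving out 1 time course at a time gave 316 and 465 calls without WT replicate 1, 425 and 494 without WT replicate 2, 372 and 509 without 4P replicate 1, and 366 and 463 without 4P replicate 2. With the scanner's own log ratios 939 genes were higher and 836 lower, and 999 of these calls were also among the 1540.

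The 2-fold genes were also placed among the 8 times of the whole series. Their choice by this step means that a higher gene cannot be highest at 30 min or lowest at 45 min. For a lower gene the reverse holds. Of the 56 that were higher, 26 had their highest mean level at 45 min and 22 at 60 min. Their lowest level was at 0 min in 15 genes, at 15 min in 16 and at 30 min in 14. Of the 105 that were lower, 60 were highest at 15 min and 24 at 30 min, and 52 had their lowest level at 45 min and 29 at 60 min. Of the higher genes 35 of 56, and of the lower genes 55 of 105, belonged to the gene lists. The lists held 379 of the 6205 genes and were chosen with earlier results of these data known, so these counts are a description only.

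The CLB2 cluster rose as a whole, in a list that was, like the others, chosen with earlier results of these data known. All 25 listed genes were called higher, in the 2 strains together and in 4P and WT each, with a median difference of 1.49 and a range of 0.69 to 2.66. The cluster kept 25 calls under every alternative tried. Its median in the single courses was 1.62 in 4P replicate 1, 1.38 in 4P replicate 2, 1.54 in WT replicate 1 and 1.58 in WT replicate 2.

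Mitotic cyclins and their regulators come first among its members. CLB1, which encodes a mitotic B-type cyclin, had levels of 0.10 and 0.06 in 4P and 0.35 and 0.44 in WT at 45 min, against -1.89 and -1.65 in 4P and -1.47 and -1.73 in WT at 30 min. The 2 times did not overlap, and the difference was 1.92 ± 0.16 (SE, limma adjusted p = 6.46e-09), or 3.79-fold. CLB2, the main mitotic cyclin gene, had levels of 1.46 and 1.56 in 4P and 1.86 and 2.07 in WT at 45 min, against 0.11 and 0.38 in 4P and 0.71 and 0.49 in WT at 30 min, a difference of 1.31 ± 0.14. Unlike CLB1, it was above the mid-log culture on all 8 arrays. CDC20, which encodes the activator of the anaphase-promoting complex that destroys securin and mitotic cyclins, had levels of 0.58 and 0.55 in 4P and 1.03 and 1.04 in WT at 45 min, against -1.36 and -0.90 in 4P and -1.11 and -0.98 in WT at 30 min. The times did not overlap in CDC20, and its difference was 1.89 ± 0.12 (limma adjusted p = 2.18e-10). The polo kinase gene CDC5 rose by 1.20 ± 0.10.

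The transcription factor gene SWI5, whose product acts later at the M/G1 boundary, rose with the cluster. SWI5 had levels of 1.53 and 1.40 in 4P and 1.75 and 1.43 in WT at 45 min, against -0.09 and 0.02 in 4P and 0.27 and -0.16 in WT at 30 min. The difference of SWI5 was 1.52 ± 0.14 (limma adjusted p = 2.74e-08) with no overlap between the times. The M/G1 genes, among them SIC1 and genes of daughter cell separation, were nearly all not called. Of 16 listed genes 15 were not called and 1 was called lower, the chitin synthase gene CHS1 at -0.54 ± 0.11 (adjusted p = 0.000954), and the median was 0.03. The Cdk inhibitor gene SIC1 had levels between -1.10 and -0.53 at 45 min and between -1.12 and -0.83 at 30 min. These ranges overlapped, and the difference of 0.12 ± 0.10 did not pass (limma adjusted p = 0.428). With a spread estimated from the 8 arrays alone 3 of the 16 M/G1 genes were called higher and 2 lower, and 1 was called higher with median centring, with the scanner's or the deposited log ratios and without 4P replicate 1. The call of CHS1 was lost without pairing.

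Some cytokinesis genes were among the large rises. HOF1, which encodes an F-BAR protein of the bud neck, had levels of 1.11 and 1.12 in 4P and 1.62 and 1.42 in WT at 45 min, against -1.77 and -1.01 in 4P and -1.35 and -1.23 in WT at 30 min. Its difference of 2.66 ± 0.17 (limma adjusted p = 1.95e-10), or 6.32-fold, was the largest among genes called with one sign in all courses. CHS2, the chitin synthase of the primary septum, averaged 0.90 ± 0.20 at 45 min and -1.18 ± 0.26 at 30 min (SD, n = 4 each), a difference of 2.08. The myosin heavy chain gene MYO1 rose by 1.72 ± 0.10 and IQG1, which encodes the scaffold of the contractile ring, by 1.33 ± 0.12.

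The list of septin and ring genes was otherwise divided. It had 5 members higher, 3 lower and 8 not called, with a median of 0.13. The 3 that fell encode the septin-associated kinases, of which Hsl1 promotes the degradation of the mitotic inhibitor Swe1. HSL1 had levels of -0.49 and -0.70 in 4P and -0.52 and -0.58 in WT at 45 min, against 1.14 and 1.05 in 4P and 0.96 and 0.94 in WT at 30 min. The times were widely apart in HSL1, which changed by -1.59 ± 0.12 (limma adjusted p = 1.46e-09), while KCC4 changed by -1.38 and GIN4 by -1.04. The septin genes CDC3, CDC10, CDC11, CDC12 and SHS1 had differences between 0.05 and 0.25 and were not called.

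Other members of the CLB2 cluster with large differences were MMR1, an adaptor that carries mitochondria into the bud, at 2.35 ± 0.11, and ALK1, a haspin-type kinase gene, at 2.00 ± 0.15. The sirtuin gene HST3, whose product removes acetyl groups from histone H3, rose by 1.51 ± 0.11, BUD4, a marker of axial budding, by 1.41 and the mitotic exit gene SPO12 by 1.49. The mitotic exit and APC list as a whole had 6 members higher and 2 lower of 16, with a median of 0.14. Among the higher ones, the exit kinase gene DBF2 and its partner MOB1 rose by 1.29 ± 0.09 and 1.36 ± 0.16. The lower ones were ACM1, an inhibitor of the APC activator Cdh1, and the securin gene PDS1. ACM1 had levels of -1.33 and -1.10 in 4P and -1.63 and -1.25 in WT at 45 min, against 1.02 and 0.38 in 4P and 0.26 and 0.22 in WT at 30 min, a change of -1.80 ± 0.15 (limma adjusted p = 8.78e-09). PDS1 changed by -0.64.

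**Figure D2:**
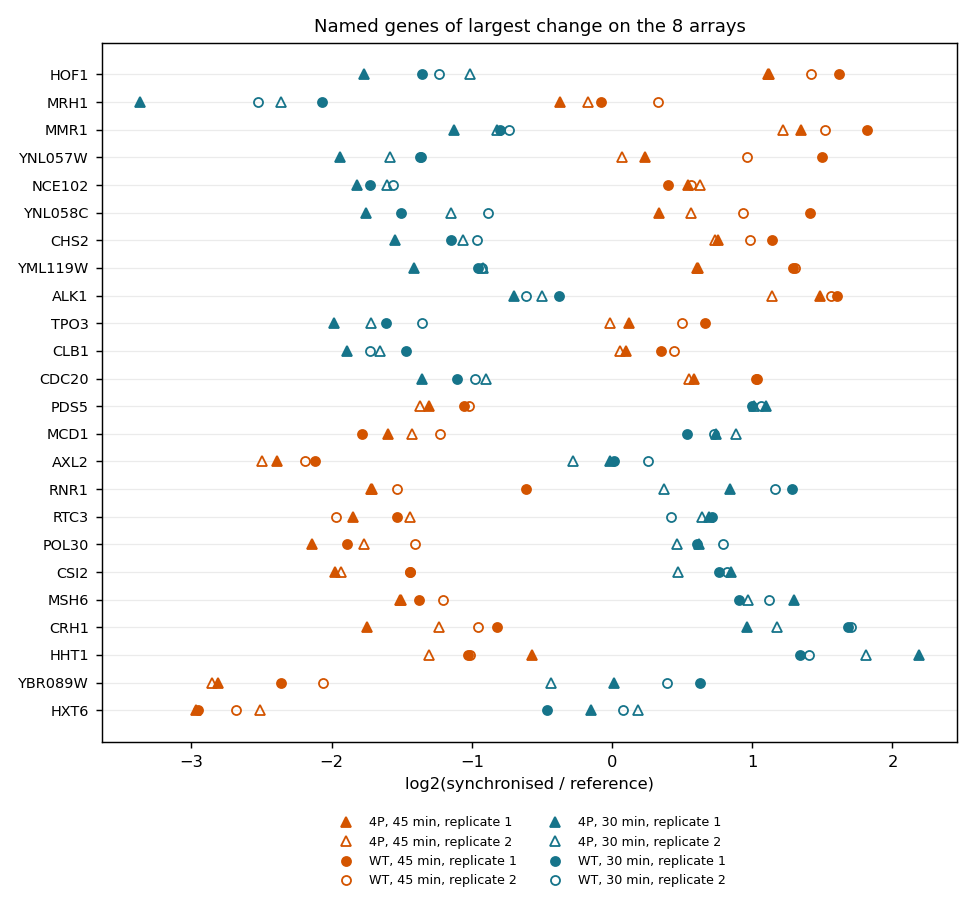
Levels (log2 ratio to the mid-log culture) on the 8 arrays for the 12 genes of largest positive and the 12 of largest negative difference that were called with one sign in all courses (45 min in orange, 30 min in blue-green, 4P as triangles, WT as circles, replicate 2 open). No gene shown has overlapping times, which their choice by size makes likely. Over all genes 10.4% lay wholly higher and 11.8% wholly lower at 45 min. The fold between times is 3.70 to 6.32 in the upper 12 and 4.69 to 6.45 in the lower 12.

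Several of the largest rises lay outside the cluster. MRH1, which encodes a plasma membrane protein, had levels of -0.37 and -0.17 in 4P and -0.08 and 0.33 in WT at 45 min, against -3.36 and -2.36 in 4P and -2.07 and -2.52 in WT at 30 min. Its difference was 2.51 ± 0.20, with saturated spots on 2 of the 45 min arrays. NCE102, a gene of plasma membrane domains called eisosomes, averaged 0.53 ± 0.10 at 45 min and -1.68 ± 0.12 at 30 min (SD, n = 4 each), a difference of 2.21 ± 0.15. The polyamine transporter gene TPO3 rose by 1.98, and the unnamed reading frames YNL058C and YML119W by 2.14 and 2.01. YNL057W, at 2.26, overlaps YNL058C in the genome, so these 2 values may not be independent.

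Core histone genes fell together. All 8 listed genes were called lower in the strains together and in each strain, with a median of -1.65 and a range of -2.66 to -1.19. HHT1, one of the paired genes for histone H3, had levels of -0.57 and -1.31 in 4P and -1.03 and -1.01 in WT at 45 min, against 2.19 and 1.81 in 4P and 1.34 and 1.40 in WT at 30 min. That is a change of -2.66 ± 0.14 (limma adjusted p = 2.2e-11), and at 30 min both 4P arrays were above both WT arrays. HTB1, an H2B gene, had levels of -0.48 and -0.63 in 4P and -0.19 and -0.21 in WT at 45 min, against 1.96 and 1.86 in 4P and 1.57 and 1.63 in WT at 30 min, a change of -2.13 ± 0.10. The other members changed by -1.71 (HTA1), -1.66 (HHF1), -1.64 (HTB2), -1.45 (HHF2), -1.41 (HHT2) and -1.19 (HTA2). Gene pairs of 1 histone type are near-identical in coding sequence, so their signals may be shared, and HTA1 had saturated spots on 2 and HTA2 on 1 of the 30 min arrays.

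G1/S genes fell as well. All 30 MBF-type genes were called lower, with a median of -1.44 and a range of -2.47 to -0.33, and 28 to 30 of them were called under every alternative. In 4P alone 28 were called and in WT alone 29.

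Genes of the replication fork lay among the lowest. POL30, which encodes the sliding clamp PCNA, had levels of -2.14 and -1.77 in 4P and -1.89 and -1.41 in WT at 45 min, against 0.62 and 0.46 in 4P and 0.60 and 0.79 in WT at 30 min, a change of -2.42 ± 0.17 (limma adjusted p = 5.48e-10). The reading frame YBR089W, which overlaps POL30, changed by -2.67 and cannot be told apart from it. RFA1 and RFA2, subunits of the single-strand binding protein RPA, changed by -1.93 ± 0.11 and -1.82 ± 0.13, and POL1, the catalytic subunit of DNA polymerase alpha, by -1.97 ± 0.15. The mismatch repair gene MSH6 had levels of -1.51 and -1.50 in 4P and -1.38 and -1.20 in WT at 45 min, against 1.30 and 0.97 in 4P and 0.91 and 1.12 in WT at 30 min. MSH6 thus changed by -2.47 ± 0.11 (limma adjusted p = 3.11e-12), with no overlap between the times.

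Genes for nucleotide supply behaved alike. RNR1, the large subunit of ribonucleotide reductase, had levels of -1.72 and -1.71 in 4P and -0.61 and -1.53 in WT at 45 min, against 0.84 and 0.37 in 4P and 1.28 and 1.16 in WT at 30 min. WT replicate 1 was the highest of the 45 min arrays here, yet still below every 30 min array, and the change was -2.31 ± 0.17. The thymidylate synthase gene CDC21 changed by -2.06 ± 0.14. SML1, whose product inhibits ribonucleotide reductase, ran the other way, with levels of 1.17 and 1.63 in 4P and 1.23 and 1.13 in WT at 45 min, against -0.04 and -0.31 in 4P and 0.26 and 0.06 in WT at 30 min, a rise of 1.30 ± 0.19 (limma adjusted p = 3.77e-05).

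Cohesin genes, whose products hold sister chromatids together, fell as well. MCD1, the cleavable subunit, changed by -2.23 ± 0.14, IRR1 by -2.03 ± 0.10, SMC3 by -1.88 ± 0.10 and SMC1 by -1.07 ± 0.10. PDS5, which maintains cohesion, averaged -1.19 ± 0.17 at 45 min and 1.04 ± 0.05 at 30 min (SD, n = 4 each), with no overlap between the times, and the change was -2.23 ± 0.11 (limma adjusted p = 4.38e-12).

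The S-phase cyclin genes CLB5 and CLB6 changed by -1.26 ± 0.08 and -1.72 ± 0.21. SWE1, which encodes the kinase that inhibits mitotic Cdk1, changed by -1.65 ± 0.14.

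Of 16 SBF-type genes, which serve budding and cell wall growth, 11 were called lower and 5 were not called, with a median of -0.81. The G1 cyclin genes CLN1 and CLN2 changed by -1.67 ± 0.16 and -1.46 ± 0.17, and their Pho85-binding relative PCL1 by -1.98 ± 0.17. CRH1, a cell wall transglycosidase gene, had levels of -1.75 and -1.23 in 4P and -0.82 and -0.96 in WT at 45 min, against 0.96 and 1.18 in 4P and 1.68 and 1.71 in WT at 30 min, a change of -2.57 ± 0.19 (limma adjusted p = 1.25e-09). The 4P arrays were below the WT arrays at both times, and the times did not overlap in either strain. CSI2 and SVS1 changed by -2.42 and -2.23. The endonuclease gene HO was not called, with a difference of 0.09 ± 0.20 and levels between -3.34 and -2.58 at 45 min and between -3.23 and -2.72 at 30 min. AXL2, a marker of axial bud sites that was not in the list, changed by -2.29 ± 0.15.

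**Figure D3:**
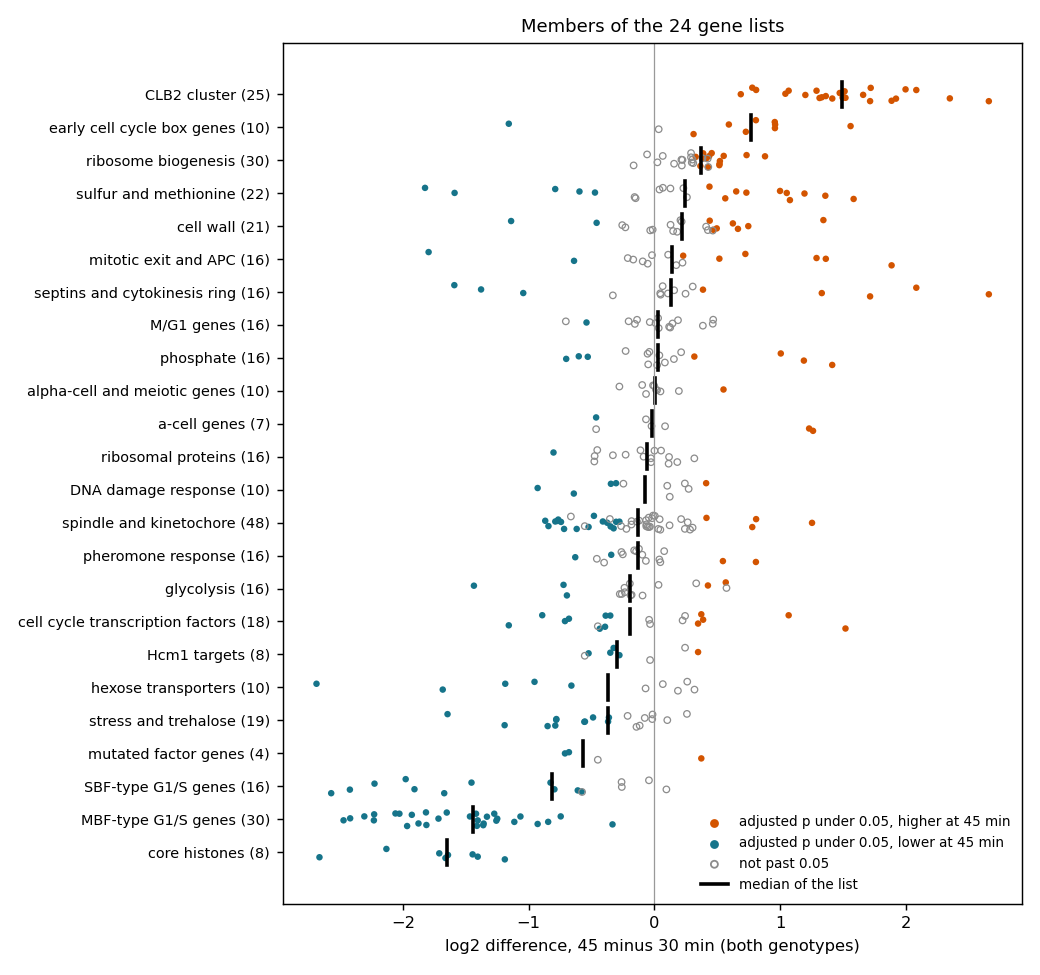
Difference, 45 minus 30 min (log2, both genotypes), of each member of the 24 gene lists, with the number of measured members in brackets (orange, called higher; blue-green, called lower; open, not called; black bar, list median). All members of the CLB2 cluster lie to the right of 0 and all members of the histone and MBF-type lists to the left, while the sulfur and septin lists hold called members on both sides.

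Genes of the spindle and kinetochore were mostly not called, and those called were mainly lower. Of 48 members 4 were called higher and 16 lower, with a median of -0.13. Over all genes 12.1% were called higher and 12.7% lower, so only the lower calls exceeded the general share. The 4 that rose were NUF2 at 1.25 ± 0.10, the midzone protein gene ASE1 at 0.81, the kinesin gene KIP2 at 0.78 and the alpha-tubulin gene TUB1 at 0.41. NUF2, a kinetochore gene of the Ndc80 complex, had levels of 1.15 and 1.20 in 4P and 1.63 and 1.35 in WT at 45 min, against -0.02 and -0.04 in 4P and 0.27 and 0.13 in WT at 30 min. Its partner genes NDC80, SPC24 and SPC25 were not called, at -0.18, -0.14 and 0.12. Among the 16 that fell were SLK19 at -0.87 ± 0.13 and the checkpoint kinase gene BUB1 at -0.84 ± 0.13, both with no overlap between the times.

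Targets of Hcm1 changed little beside this. Of 8 listed genes 4 were called lower and 1 higher, with a median of -0.30. BIM1, a microtubule plus-end gene, changed by -0.52 ± 0.10 (limma adjusted p = 0.000533) and FKH2, a forkhead activator of the CLB2 cluster, by 0.35 ± 0.10 (adjusted p = 0.0167). NDD1, its coactivator, had levels of 0.06 and 0.19 in 4P and 0.46 and 0.18 in WT at 45 min, against 0.40 and 0.30 in 4P and 0.94 and 0.65 in WT at 30 min, a change of -0.35 ± 0.11 with overlapping ranges. The calls of NDD1, FKH2, CIN8 (-0.32) and STU2 (-0.28) were each lost without any 1 of the 4 time courses, and that of BIM1 with the scanner's or the deposited log ratios.

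Of the genes of the 4 mutated factors 1 was called higher and 2 lower. HCM1 had levels of -0.98 and -0.75 in 4P and -0.28 and -0.91 in WT at 45 min, against -0.03 and -0.48 in 4P and 0.45 and -0.01 in WT at 30 min, a change of -0.71 ± 0.19 (limma adjusted p = 0.00896). YOX1 had levels of -0.74 and -0.63 in 4P and 0.76 and -0.11 in WT at 45 min, against 0.02 and -0.55 in 4P and 1.54 and 0.99 in WT at 30 min. Both 4P arrays lay below both WT arrays at each time, the times overlapped, and the paired change was -0.68 ± 0.19 (adjusted p = 0.0122). YHP1 rose by 0.37 ± 0.10 (adjusted p = 0.0104), with levels of -2.14 and -2.23 in 4P and -1.38 and -1.29 in WT at 45 min, against -2.43 and -2.72 in 4P and -1.59 and -1.79 in WT at 30 min. TOS4 had levels of -3.88 and -3.81 in 4P and -3.66 and -2.69 in WT at 45 min, against -3.25 and -3.41 in 4P and -2.88 and -2.69 in WT at 30 min, and its difference of -0.45 ± 0.22 did not pass (adjusted p = 0.139). The calls of HCM1 and YOX1 were lost without pairing, without WT replicate 2 and without 4P replicate 1, and that of YHP1 without WT replicate 2 and without 4P replicate 2. All 4 loci were tagged in both strains but not in the mid-log culture, and the part of the tags in these levels was not tested.

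Of 18 cell cycle transcription factor genes 5 were called higher and 8 lower. SWI5, FKH2 and YHP1, given above, were among the higher ones, and MCM1 was called higher at 0.39 ± 0.12 (limma adjusted p = 0.0209), a call lost without any 1 time course. In MCM1 the step was 0.70 in 4P and 0.08 in WT. SWI4, the DNA-binding part of SBF, changed by -1.16 ± 0.10 and its partner SWI6 by -0.39 ± 0.08. PLM2, a relative of TOS4, changed by -0.89 ± 0.14, TOS8 by -0.39 ± 0.09 and the MBF corepressor gene NRM1 by -0.44 ± 0.12. MBP1, FKH1, STB1 and WHI5 were not called, at 0.22, 0.24, -0.04 and -0.03, and WHI5 was well above background on 3 of the 4 arrays at 30 min.

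Early cell cycle box genes, which Yox1 and Yhp1 repress together with Mcm1, were called higher in 8 of 10 cases, with a median of 0.77. SWI4 was the one called lower and CDC6, at 0.03, was not called. Of the 8 called higher, 6 encode the subunits of the MCM replicative helicase. MCM7 had levels of -1.42 and -1.03 in 4P and 0.28 and -0.18 in WT at 45 min, against -2.62 and -2.32 in 4P and -1.84 and -1.80 in WT at 30 min. The 4P arrays were below the WT arrays at both times, and the difference was 1.56 ± 0.13 (limma adjusted p = 4.94e-09). MCM2, MCM4 and MCM6 each rose by 0.96, MCM5 by 0.73 and MCM3 by 0.59, the last 2 with overlapping times and MCM3 with a call lost without WT replicate 1 or 4P replicate 2. The pheromone-dependent Cdk inhibitor gene FAR1 rose by 0.81 ± 0.15. The G1 cyclin gene CLN3, at 0.31 ± 0.11 (adjusted p = 0.0473), lost its call without any 1 time course. The steps of CLN3 were 0.53 and 0.84 in 4P and -0.10 and -0.02 in WT, and this difference between strains was not called.

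Of the 7 a-cell genes 2 rose and 1 was called lower. STE2, the alpha-factor receptor gene, had levels of -2.81 and -2.47 in 4P and -1.74 and -1.96 in WT at 45 min, against -3.62 and -3.52 in 4P and -3.44 and -3.45 in WT at 30 min, a rise of 1.26 ± 0.14 (limma adjusted p = 9.71e-07). The a-factor exporter gene STE6 rose by 1.23 ± 0.13. ASG7 was called lower at -0.46 ± 0.17 (adjusted p = 0.0486) but stood at 0.12, not called, with the scanner's or the deposited log ratios, so no direction is given for it. Of 16 pheromone response genes 2 were called higher, FAR1 and the G-protein gene GPA1 (0.54), and 2 lower, PRM3 at -0.63 and KAR4 at -0.34. These shares are near those over all genes, 12.1% higher and 12.7% lower, so the counts do not set the list apart.

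Sulfur and methionine genes were divided. Of 22 members 10 were called higher and 5 lower, with a median of 0.24. Enzymes of sulfate assimilation and of methionine and S-adenosylmethionine synthesis were among those that rose. MET3, which encodes ATP sulfurylase, had levels of 3.23 and 3.39 in 4P and 3.52 and 3.01 in WT at 45 min, against 1.92 and 1.33 in 4P and 2.30 and 1.26 in WT at 30 min, a rise of 1.58 ± 0.13 (limma adjusted p = 6.01e-09). The sulfite reductase gene MET5, the kinase gene MET14 and the methionine synthase gene MET6 rose by 1.05, 1.00 and 1.19, and the S-adenosylmethionine synthetase genes SAM1 and SAM2 by 1.08 and 1.36. Those that fell included genes of 2 regulators of the pathway, MET28 at -1.59 ± 0.16 and MET32 at -0.79 ± 0.14. STR3, the cystathionine beta-lyase gene, had levels of 1.64 and 1.58 in 4P and 1.57 and 1.63 in WT at 45 min, against 3.71 and 3.24 in 4P and 3.79 and 2.99 in WT at 30 min. It changed by -1.83 ± 0.15 and, like MET28, remained above the mid-log culture on all 8 arrays.

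Acid phosphatase genes led the phosphate genes, of which 4 were called higher and 3 lower out of 16. PHO3, the constitutive acid phosphatase gene, had levels of -0.20 and -0.02 in 4P and 0.85 and 0.64 in WT at 45 min, against -1.28 and -1.26 in 4P and -1.13 and -0.73 in WT at 30 min, a rise of 1.41 ± 0.14. PHO11 and PHO12, near-identical genes whose signals may be shared, rose by 1.00 and 1.19. PHO5, the main regulated phosphatase gene, stood at 0.32 and the phosphate transporter gene PHO84 at -0.53, and both calls were lost under several alternatives.

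Among genes of carbon use, calls were lower in part of the hexose transporter list. Of 10 hexose transporter and sensor genes 5 were called lower and 5 were not called, with a median of -0.37. HXT6, a high-affinity glucose transporter gene, had levels of -2.97 and -2.51 in 4P and -2.95 and -2.68 in WT at 45 min, against -0.15 and 0.19 in 4P and -0.46 and 0.07 in WT at 30 min. Its change of -2.69 ± 0.16 (limma adjusted p = 3.71e-11), or 6.45-fold, was the largest fall among genes called with one sign in all courses. HXT7, near-identical to HXT6, changed by -1.68, and HXT2 by -1.19. HXK1, the hexokinase gene of poor sugars, changed by -1.44 ± 0.18. Of 16 glycolysis genes 2 were called higher, 3 lower and 11 not called, beside 12.1% higher and 12.7% lower over all genes. TDH3 (-0.70) was saturated on 2 arrays at each time.

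Stress and trehalose genes were called lower in 11 of 19 cases and not called in 8, with a median of -0.37. PGM2, the phosphoglucomutase gene, changed by -1.65 ± 0.14, the glycogen phosphorylase gene GPH1 by -1.19 ± 0.09 and the small heat shock protein gene HSP42 by -0.85 ± 0.12. HSP12 had levels of 0.60 and 0.58 in 4P and 0.12 and 0.29 in WT at 45 min, against 1.73 and 1.14 in 4P and 1.03 and 0.82 in WT at 30 min, a change of -0.78 ± 0.12. GPP2, a glycerol phosphatase gene, changed by -1.39 ± 0.14.

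Ribosome biogenesis genes were called higher in 14 of 30 cases and not called in 16, with a median of 0.37. DBP2, an RNA helicase gene, rose by 0.88 ± 0.13 and NOP1, the nucleolar methyltransferase gene, by 0.73 ± 0.17, with a step of 1.17 in 4P and 0.30 in WT. The count depended on single courses, with 6 called without WT replicate 2, 6 without 4P replicate 1, 9 without either of the others and 23 when the spread was taken from the 8 arrays alone. Ribosomal protein genes had 1 call of 16, RPS31 at -0.81, which was saturated on 2 of the 45 min and 3 of the 30 min arrays. Its step was -2.57 in WT replicate 1, against -0.33 to -0.16 in the other courses.

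Of 21 cell wall genes 7 were called higher and 2 lower. UTH1, a SUN family gene, had levels of -0.36 and 0.45 in 4P and 0.27 and -0.21 in WT at 45 min, against -1.89 and -1.27 in 4P and -1.06 and -1.01 in WT at 30 min, a rise of 1.34 ± 0.17. SCW10, a glucanase-like gene, changed by -1.14 ± 0.19 and had saturated spots on 2 of the 30 min arrays. YGP1 rose by 0.75 ± 0.21 with a step of 0.27 in 4P and 1.23 in WT, and its call was lost without WT replicate 1 or 4P replicate 1. DNA damage response genes had 1 call higher, the glycosylase gene MAG1 at 0.41, and 4 lower out of 10, among them the checkpoint kinase gene DUN1 at -0.64.

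The step was then compared between the strains. Called in both were 148 higher and 263 lower genes, which are 41.7% and 57.4% of the calls in 4P and 73.6% and 80.4% of the calls in WT. The test of the difference itself, the step in 4P minus the step in WT, called 0 of 6205 genes in limma (0%), with 100 genes at an unadjusted p under 0.05. Its median standard error was 0.22, against 0.11 for the joint step. The 100 genes are fewer than a threshold of 0.05 marks by chance alone. The 0 calls thus do not show that the steps were equal in the strains. Without WT replicate 2, 1 gene was called higher and 2 lower, and 0 under each of the other alternatives, where 31 to 479 genes had an unadjusted p under 0.05.

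Across all genes the steps of the single courses correlated with r = 0.84 between the 4P replicates, 0.76 between the WT replicates and 0.72 to 0.82 between courses of different strains. These are correlations over genes, which are not independent replicates, and all courses share the mid-log RNA. The CLB2 cluster had a median step of 1.52 in 4P and 1.54 in WT, the MBF-type genes -1.50 in 4P and -1.48 in WT, and the core histones -1.75 in 4P and -1.49 in WT. Medians lay further apart in the early cell cycle box genes (0.63 in 4P, 1.01 in WT) and the glycolysis genes (0.12 in 4P, -0.49 in WT). No member of either list was called in the test between strains.

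The 10 genes with the smallest p in this test are given as values, since none was called. HTB1 had steps of -2.44 and -2.49 in the 4P courses and -1.77 and -1.84 in the WT courses, a difference of -0.66 ± 0.20 (SE, limma adjusted p = 0.999). CLN3 had steps of 0.53 and 0.84 in 4P and -0.10 and -0.02 in WT, a difference of 0.74 ± 0.22 (limma adjusted p = 0.999). The step was 1.22 in 4P and 2.09 in WT in TDA6, 1.31 in 4P and 1.92 in WT in EIS1, and -1.15 in 4P and -0.41 in WT in EGO4. It was -0.21 in 4P and 0.30 in WT in GET4, and 0.48 in 4P and 0.0033 in WT in HSF1, the heat shock factor gene. PDC1, first by p, and RPS2 were saturated on 2 of the 45 min and 3 of the 30 min arrays, and GPM1 on 2 arrays at each time. The WT steps of PDC1, RPS2 and GPM1 were -1.27, -1.59 and -1.02 in replicate 1, whose 30 and 45 min arrays lay on different slides. In WT replicate 2 each was -0.33. Their 4P steps were 0.98, 0.26 and 0.57 in replicate 1 and -0.16 each in replicate 2. Outside these 10, MCM7 had a step of 1.25 in 4P and 1.87 in WT, and this difference was not called either.

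**Figure D4:**
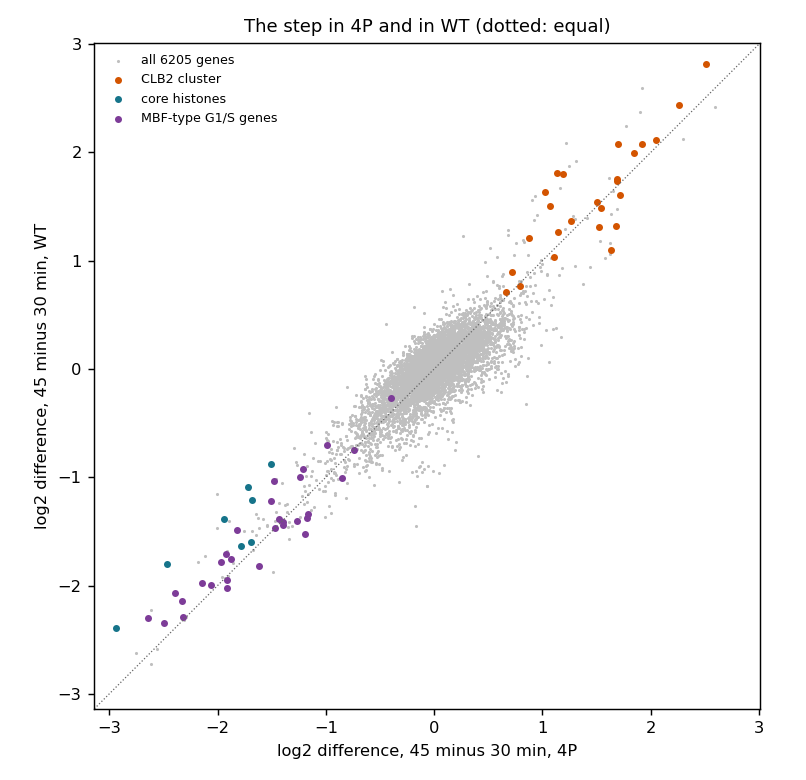
Difference, 45 minus 30 min (log2), of all 6205 genes in 4P (x axis) and in WT (y axis), with 3 gene lists coloured and the dotted line marking equal steps. The coloured lists lie near the line, with the CLB2 cluster at medians of 1.52 in 4P and 1.54 in WT.

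The step was also set beside the later one in the second cycle, 105 minus 90 min, which uses other arrays of the same cultures. That later step had 305 genes higher (4.92%) and 363 lower (5.85%), and across genes the steps correlated with r = 0.77. Of the 56 genes at least 2-fold higher at the first step all 56 were also higher at the later one, 54 of them called, and of the 105 lower genes 99 were lower and 89 called. The CLB2 cluster had all 25 members called higher again and the core histones all 8 lower again, with medians of 1.12 and -1.30.

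The difference between the first and the later step was called in 22 genes where the first step was more positive (0.355%) and 50 where it was more negative (0.806%). The scanner's log ratios gave 500 and 434 such genes and the deposited ones 541 and 399. One 105 min array, 4P replicate 1, had 1761 outlier-marked spots, and without it and the 15 min array of that course the counts were 16 and 36.

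Most negative in this difference were 5 genes with a smaller fall or none at the later step. HXT6 changed by -2.69 at the first step and -0.76 at the later one, a difference of -1.93 ± 0.22 (limma adjusted p = 3.2e-05). STR3 stood at -1.83 at the first and 0.19 at the later step, the aldehyde dehydrogenase genes ALD3 and ALD6 at -1.49 and -0.66 at the first and 0.05 and 1.13 at the later, and RTC3 at -2.31 at the first and -0.23 at the later. Of 30 MBF-type genes 5, of 19 stress genes 3 and of 22 sulfur genes 4 were called more negative at the first step.

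The 5 genes with the most positive difference were not called at the first step and fell at the later one. They were HO (0.09 at the first and -2.0 at the later step) and the M/G1 genes DSE4 (0.47 and -1.14), PIR1 (0.46 and -1.07), DSE1 (-0.14 and -1.58) and EGT2 (0.03 and -1.32), which serve separation of daughter cells or the wall. Their mean levels at 30 min were between -3.86 and -2.92, and each was highest at 75 min, other than PIR1 in WT at 60 min. Of 16 listed M/G1 genes 6 were called in this direction. The calls of PIR1, DSE1 and EGT2 were lost when any of several single choices was changed.

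**Figure D5:**
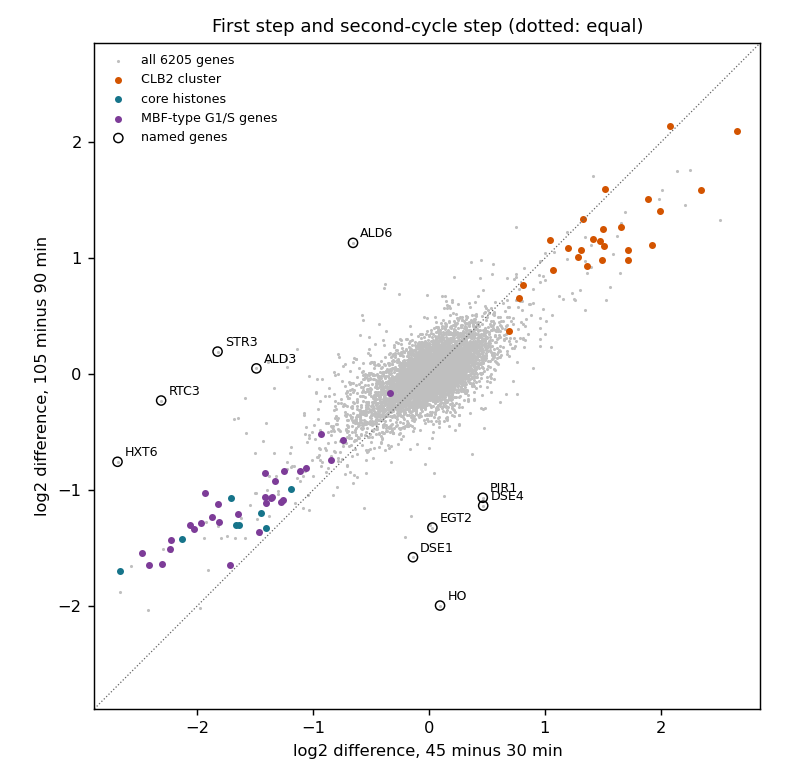
Difference, 45 minus 30 min (x axis), against difference, 105 minus 90 min (y axis), both log2, of all 6205 genes, with 3 gene lists coloured, the dotted line marking equal steps and the 10 named genes of largest difference between the steps circled. HXT6, RTC3, STR3, ALD3 and ALD6 lie left of the line, and HO, DSE1, EGT2, DSE4 and PIR1 lie between -0.14 and 0.47 on the x axis and below -1 on the y axis.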

How the data were processed

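RNA of synchronised yeast and of a mid-log culture was measured together on 2-colour Agilent arrays, 32 in all. Per the file headers the scanner files hold an intensity per spot and channel, and a log10 ratio, red over green. The submitters' processing notes name Agilent Feature Extraction, version 10.7.1.1. The deposited table of the authors holds log2 values, which run as synchronised over mid-log RNA, are centred near 0 and follow the scanner's ratios (r from 0.961 to 0.999). Its column medians ran from -0.04 to 0.02.

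From the deposited intensity values, median signals were corrected with normexp (offset 50), normalised by loess within arrays and turned to synchronised over mid-log RNA, in R 4.3.3 with limma 3.58.1. Spots marked as outliers were left missing, and spots were averaged per probe and probes per gene. Genes were kept if well above background for the synchronised RNA on all arrays of at least 1 strain and time, which left 6205 of 6225, of which 5737 of the 6225 matched RefSeq symbols. The limma fit had 16 group means over all 32 arrays and the time course as a block, since arrays of a strain and replicate are successive samples of 1 released culture per the labels. The deviations of paired arrays correlated with r = 0.41 in 4P and 0.53 in WT. The block also takes up the dye. Calls needed a Benjamini-Hochberg adjusted p under 0.05. The scripts were tested on simulated data.

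The named genes were the 12 largest called differences each way with 1 sign in all courses, the 3 largest of each list, all histone, mutated factor and cell cycle factor genes, the 5 largest differences from the later step each way, and CLB1, CLB2, SWI5, CDC5, CDC20, SIC1, CLN2, CLB5, HTA1, HTB1, MET3 and MCM7. Other genes were named after their values were seen. Members and lists were chosen with earlier results of these data known. Of 409 list entries 408 were measured. Alternatives were no block, a random block, slide as a block, the contrast's arrays only, median centring, no background correction, the scanner's log10 and the deposited log2 values, other filters and leaving out each time course. Leaving out 2 arrays of 4P replicate 1 (15 and 105 min) was added after seeing the data. Some members of the lists are counted but not reported singly here.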

Additional observations from a re-analysis of the deposited data

Results flagged for a closer look

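Of 133 steps checked over the 4 time courses, 7 had a course far from the others by Dixon's criterion, and chance alone marks about 1 in 20. MCD1 changed by -1.96 in WT replicate 2, against -2.34 to -2.31 in the other courses. HTB2 changed by -1.81 in 4P replicate 1, against -1.60 to -1.57. BUB1 changed by -1.15 in 4P replicate 2, against -0.77 to -0.70. PHO11 rose by 1.51 in WT replicate 1, against 0.79 to 0.87. HXK1 changed by -1.54 in 4P replicate 1, against -1.41 to -1.39. HO stood at -0.10 in WT replicate 1, against 0.14 to 0.18. RPS31 stood at -2.57 in WT replicate 1, against -0.33 to -0.16, and was saturated on 2 of the 45 min and 3 of the 30 min arrays. WT replicate 1, the far course in PHO11, HO and RPS31, had its 30 and 45 min arrays on different slides. The far courses kept their sign in MCD1, HTB2, BUB1, PHO11, HXK1 and RPS31.

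The first step differed from the later one, 105 minus 90 min, in limma's test of that difference. The first step was more negative in RTC3 by -2.08, STR3 by -2.02, HXT6 by -1.93, ALD6 by -1.79 and ALD3 by -1.54. It was more positive in HO by 2.09, DSE4 by 1.60, PIR1 by 1.53, DSE1 by 1.44 and EGT2 by 1.35.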

How the results depend on the processing

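Leaving out 1 time course at a time gave 316 to 425 higher and 463 to 509 lower genes for the joint step, 61 to 181 and 122 to 315 in WT, 77 to 295 and 153 to 405 in 4P, 0 to 1 and 0 to 2 for the difference between strains, and 2 to 12 and 12 to 30 for the first minus the later step; these fits have fewer arrays. Without the replicate block the pairs of counts were 472 and 535 (joint), 115 and 197 (WT), 193 and 302 (4P) and 7 and 25 (first minus later). With slide as a further block they were 447 and 545 (joint), 82 and 148 (WT) and 12 and 26 (first minus later). With the spread from the contrast's arrays alone they were 1322 and 1302 (joint), 566 and 768 (WT) and 903 and 927 (4P). Median centring left 31 genes lower for the first minus the later step. The scanner's log ratios gave 132 and 211 in WT, and 500 and 434 for the first minus the later step, and the deposited values gave 185 lower in WT, and 541 and 399. In these 2 settings 53.5% and 57.6% of the first minus later calls were positive, against 30.6% as reported. The cause was not tested. The 1540 called genes kept their sign under every choice of block, background, arrays in the fit and left-out course, 1532 of them with median centring, 1484 with the scanner's values and 1468 of 1524 with the deposited values.

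Single genes that changed sign were not called, other than ASG7, at 0.12 with the scanner's and the deposited values. WHI5 was 0.0511 with slide as a block, 0.45 with the scanner's, 0.37 with the deposited values and from -0.179 to 0.110 with 1 course left out. STB1 was 0.30 with the scanner's and 0.30 with the deposited values, and from -0.151 to 0.0661 with 1 course left out. SIC1 was -0.26 with both. DSE1 was 0.0377 with slide as a block and SPS1 -0.0563 with median centring. EGT2 ran from -0.0651 to 0.123 with 1 course left out, and was -0.0404 without WT replicate 2. Over the named genes and alternatives, 151 values lost their call and 27 gained one, while 2299 kept direction and side. The block changed the named calls of HCM1, YOX1, NDD1, NRM1, MCM3, CHS1, CLN3, CIN8, STU2, RPS31, GLK1, TDH3, MAG1 and ASG7, which were lost without it. Depth on these arrays is limited by saturation at the top, in 132 genes.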

Other observations

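The genes below lay outside the lists and were chosen after their values were seen. Of 14 eisosome genes, whose products form furrows of the plasma membrane, 3 were called higher (background 12.1%), 1 was called lower (12.7%) and 10 were not called. NCE102 rose by 2.21, EIS1 by 1.62 ± 0.11 (SE, limma adjusted p = 2.34e-10) and SUR7 by 1.39 ± 0.19. SUR7 had levels of 0.85 and 0.94 in 4P and 0.92 and 0.80 in WT at 45 min, against -0.74 and -0.72 in 4P and -0.25 and -0.36 in WT at 30 min, with no overlap between the times. FHN1, a relative of NCE102, fell by 0.51 on the log2 scale, with means of -0.55 ± 0.08 at 45 min and -0.05 ± 0.08 at 30 min (SD, n = 4 each). The core genes PIL1 and LSP1 stood at -0.06 and -0.03 and were not called.

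The siderophore transporter gene ENB1 had levels of 0.84 and 0.16 in 4P and 1.39 and 0.71 in WT at 45 min, against -1.10 and -1.17 in 4P and -0.21 and -0.54 in WT at 30 min, a rise of 1.53 ± 0.15 (SE, limma adjusted p = 1.21e-07). The multicopper oxidase gene FET3 rose by 1.12 ± 0.21. SFG1, a regulator of superficial growth, rose by 1.69 ± 0.14, and NBA1, a bud neck gene, by 1.65 ± 0.09, both with the 45 min arrays wholly above the 30 min arrays.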
